A study of Mus musculus with 20 samples.

Results

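The liver sinusoid is lined by an endothelium of its own, and 10 genes that mark it were followed in the livers of adult male mice whose mothers had been pregnant at different ambient temperatures. The genes were Lyve1, Stab1, Stab2, Clec4g, Fcgr2b, Kdr, Tek, Eng, Cdh5 and Pecam1. They were taken by their symbols in the platform annotation, and all 10 were measured, each by 1 transcript cluster (the set of probes summarised for a gene), among 19505 gene symbols on the array. The rule that took them uses only the symbols, though the list was drawn up with earlier results of these data known.

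Sinusoidal endothelial cells have open pores and almost no basement membrane, so that plasma reaches the hepatocytes directly. They also clear waste from the blood, taking up hyaluronan, modified proteins and small immune complexes through scavenger receptors, lectins and an Fc receptor. Growth factor receptors shared with other endothelia, for VEGF, angiopoietins and BMP9, keep this lining alive and differentiated, and adhesion molecules hold its cells together.

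The study used 20 male offspring of wild-type C57BL/6NCr dams, an inbred strain, aged 4 to 5 months, with 1 liver array each and 5 mice in each of 4 groups. The groups differ by the temperature of the dam in gestation, which was 10, 18 or 30 °C, or 23 °C for the control group at the usual temperature of an animal house. Before mating, the 30 °C dams spent 3 weeks at their temperature, the 18 and 10 °C dams 2 weeks, and the sires of each group 3 days. From the day of delivery all dams and pups lived at 23 °C, and the sons ate a standard chow, and the labels name no drug, special diet or altered gene in any group. The groups are called below by the dam's temperature, and single mice by that temperature and the animal number in the labels. The labels name no dam, litter or batch, so p-values measure only the spread between these arrays, and litter and group effects cannot be told apart if littermates share a group.

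The tissue was whole liver. The hepatocyte markers Alb, Ttr and Apoa1 were near the top of the scale at means of log2 19.89, 19.88 and 19.87. All values are log2 expression values, so a difference of 1 is a doubling, and levels of different genes are not compared because each has its own probes. Each of the 10 markers had a mean above the mean level of the array's negative control rows, which lay between 4.40 and 4.75, and above 3.90, the 95th percentile of 1091 olfactory receptor clusters that liver is not known to use. The lowest single value of any marker was 5.18, for Tek in animal 23 of the 23 °C group. Single negative control rows reached higher, with a 95th percentile of 7.58, and the means of Lyve1, Stab1, Pecam1 and Tek lay below that. In whole tissue, fewer endothelial cells and less RNA per cell cannot be told apart.

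None of the 10 markers differed between any of the maternal temperatures after adjustment over all 22206 transcript clusters (limma, Benjamini-Hochberg, threshold 0.05). This held in the 6 pairwise comparisons, in the F-test over the 4 groups and for the slope on maternal temperature. The background was nearly empty as well. Only 2 clusters passed between 10 and 23 °C, which is 0.00901% of those tested, and 0% passed in each of the other 7 tests. The smallest adjusted p of a marker in any of these tests was 0.447, for Stab1 between 10 and 23 °C.

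At an unadjusted p under 0.05, the markers were counted against the share of all clusters that reached the same level. Between 10 and 23 °C the count was 0 of 10, where 11.6% of all clusters reached it. It was 1 of 10 between 18 and 23 °C (Cdh5; 9.25% of all clusters) and 0 of 10 between 30 and 23 °C (4.84%). Stab2 was the 1 marker between 10 and 30 °C (6.76%), Lyve1 and Cdh5 were the 2 between 18 and 30 °C (8.21%), and Lyve1 was the 1 between 10 and 18 °C (8.10%). The F-test had 0 (9.86%) and the slope had 2, Stab2 and Fcgr2b (8.15%). The counts of 0 lay below the background shares and the counts of 1 or 2 above them. With only 10 markers, neither can be told from the background.

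No marker separated any pair of groups completely. The count of markers whose groups did not overlap was 0 of 10 in every comparison. Over all clusters the share was 2.45% for 10 against 23 °C, 1.81% for 18 against 23 °C and 0.752% for 30 against 23 °C. It was 0.982% for 10 against 30 °C, 1.41% for 18 against 30 °C and 1.42% for 10 against 18 °C.

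The directions were mixed. Relative to 23 °C, 6 markers were higher and 4 lower in 10 °C offspring, 7 higher and 3 lower in 18 °C offspring, and 5 higher and 5 lower in 30 °C offspring. The median log2 difference of the 10 markers was 0.17, 0.11 and 0.0099 in that order, where the median of all clusters was 0.0024, -0.0020 and -0.0055. These 3 comparisons share the 23 °C arrays. Of the same markers 8 were higher and 2 lower at 10 than at 30 °C, and 7 higher and 3 lower at 18 than at 30 °C. Between 10 and 18 °C 5 were higher and 5 lower. The medians were 0.12, 0.11 and -0.01 in that order, where all clusters had 0.0058, 0.0033 and 0.0009. The slope on maternal temperature was above 0 for 3 markers and below 0 for 7.

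**Figure D1:**
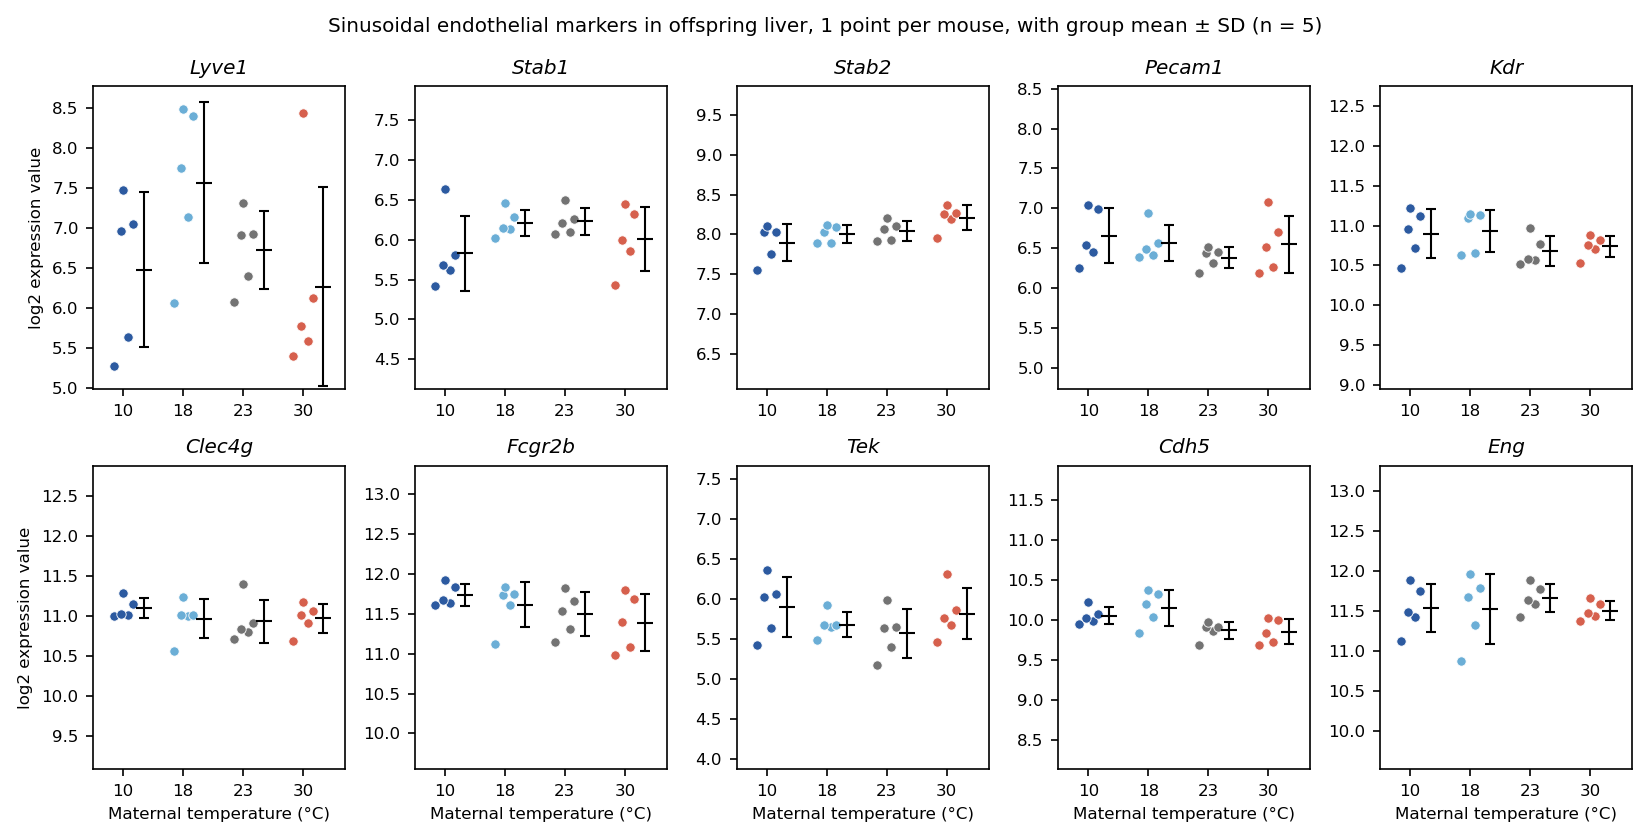
Log2 expression value of each marker (vertical axis, the same span of log2 units in every panel) by maternal temperature in °C (horizontal axis), with 1 point per mouse and the group mean ± SD (n = 5) in black. The points of Lyve1 are spread over 3.22 log2 units and those of Cdh5 over 0.70, and in no panel is a group clear of another.

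Lyve1, a receptor for hyaluronan on sinusoidal and lymphatic endothelium, had the widest spread of the 10. The 10 °C offspring were at log2 5.27, 5.64, 6.96, 7.05 and 7.48, and the 18 °C offspring at 6.06, 7.13, 7.75, 8.41 and 8.49. In the 23 °C controls the values were 6.07, 6.40, 6.92, 6.93 and 7.32. The 30 °C offspring were at 5.40, 5.59, 5.78, 6.12 and 8.44. Thus 4 of the 30 °C livers were below 4 of the 23 °C livers and 4 of the 18 °C livers, while the fifth, animal 8, was near the top of the whole series.

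Group means of Lyve1 were 6.48 ± 0.97, 7.57 ± 1.005, 6.73 ± 0.49 and 6.27 ± 1.24 (SD, n = 5) at 10, 18, 23 and 30 °C. The 18 °C group was the highest, and its difference from the 30 °C group was 1.30 ± 0.53 (SE) on the log2 scale, or 2.47-fold. That difference did not pass (95% confidence interval 0.22 to 2.39, limma adjusted p = 0.529). Without animal 8 of the 30 °C group it was 1.85, with a limma adjusted p of 0.284. The 10 °C group was 1.09 below the 18 °C group (limma adjusted p = 0.617). Against the controls, the 18 °C offspring differed by 0.84 (adjusted p = 0.665), the 10 °C offspring by -0.24 (adjusted p = 0.893) and the 30 °C offspring by -0.46 (adjusted p = 0.987). Without animal 2 of the 10 °C group the 10 °C difference from the controls was 0.06, and without animal 8 of the 30 °C group the 30 °C difference was -1.004. Because the mice of 1 group differ so much, the intervals of Lyve1 were wide, and the widest bound of the 6 was 2.39 log2 units (5.25-fold).

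Stab1 and Stab2 encode the stabilins, large scavenger receptors of which stabilin-2 is the main hyaluronan clearance receptor of the sinusoid. Stab2 was among the steadiest markers. Its values were 7.56, 7.75, 8.03, 8.04 and 8.10 in 10 °C offspring and 7.95, 8.20, 8.26, 8.27 and 8.37 in 30 °C offspring. In between lay the 18 °C offspring, from 7.89 to 8.12, and the controls, from 7.91 to 8.21. In the 30 °C group 4 of 5 livers were above every 10 °C liver, and animal 4 was not.

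The Stab2 means were 7.90 ± 0.23, 8.004 ± 0.11, 8.05 ± 0.12 and 8.21 ± 0.16 (SD, n = 5) from the coldest to the warmest maternal temperature. The slope was 0.15 ± 0.06 (SE) log2 units per 10 °C (limma adjusted p = 0.538). Between 10 and 30 °C the difference was -0.31 ± 0.13 (SE), or 1.24-fold, with an interval of -0.58 to -0.05 (limma adjusted p = 0.695). Neither passed. Of 1000 transcript clusters with the nearest mean level, 2.3% had a smaller within-group SD than Stab2.

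Stab1 was at 5.42, 5.62, 5.68, 5.80 and 6.63 in 10 °C offspring and at 6.07, 6.10, 6.21, 6.26 and 6.50 in the controls. Here 4 of 5 of the 10 °C livers lay below every control, while animal 4 lay above them all. The 18 °C offspring ran from 6.02 to 6.46 and the 30 °C offspring from 5.44 to 6.44. The 10 °C mean of 5.83 ± 0.47 was 0.40 ± 0.20 (SE) below the 23 °C mean of 6.23 ± 0.17, with an interval of -0.81 to 0.02 (limma adjusted p = 0.447).

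That Stab1 difference moved with single arrays and with a covariate for the array background. Without animal 4 of the 10 °C group it was -0.60 (limma adjusted p = 0.253, the lowest of any marker in the alternatives tried). The background control rows of the arrays averaged 3.71 ± 0.02 at 10 °C, 3.71 ± 0.04 at 18 °C, 3.65 ± 0.02 at 23 °C and 3.66 ± 0.06 at 30 °C (SD, n = 5). With their level as a covariate the Stab1 difference was -0.21. The levels ran from 3.682 to 3.724 at 10 °C and from 3.628 to 3.679 at 23 °C. They did not overlap, so background and group cannot be told apart in this comparison.

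Among 17 other measured genes of scavenging and hyaluronan handling, such as scavenger receptors, hyaluronan synthases and hyaluronidases, 0 passed in any of the 8 tests. Between 10 and 23 °C 8 were higher and 9 lower, with a median of -0.04. Msr1, the class A scavenger receptor that macrophages also carry, was at 7.14 ± 0.25, 7.51 ± 0.22, 7.50 ± 0.26 and 6.86 ± 0.39 from 10 to 30 °C. Its difference of 0.65 ± 0.18 (SE) between 18 and 30 °C had a limma adjusted p of 0.365.

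Clec4g, also called LSECtin, is a C-type lectin of sinusoidal endothelium, and Fcgr2b is the inhibitory IgG receptor that binds immune complexes in the sinusoid. Clec4g was nearly level across the groups, with means of 11.10 ± 0.13, 10.97 ± 0.25, 10.93 ± 0.27 and 10.97 ± 0.18 (SD, n = 5) from 10 to 30 °C. Its single livers ran from 10.56 in animal 7 of the 18 °C group to 11.40 in animal 2 of the 23 °C group. Group accounted for 9.67% of its sum of squares over the 20 mice. The difference of 10 from 23 °C was 0.16 ± 0.15 (SE), with an interval of -0.14 to 0.47 (limma adjusted p = 0.711).

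Group means of Fcgr2b were lower at each warmer maternal temperature, the opposite order to Stab2, though neither order passed a test. The values were 11.61, 11.64, 11.68, 11.84 and 11.92 in 10 °C offspring and 11.13, 11.61, 11.74, 11.75 and 11.84 in 18 °C offspring. Controls were at 11.15, 11.32, 11.53, 11.66 and 11.83, and 30 °C offspring at 10.99, 11.09, 11.39, 11.68 and 11.80. In the 30 °C group 3 of 5 livers were below every 10 °C liver, and the other 2 lay among them.

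The means of Fcgr2b were 11.74 ± 0.14, 11.61 ± 0.28, 11.50 ± 0.27 and 11.39 ± 0.36 (SD, n = 5). The slope was -0.18 ± 0.08 (SE) log2 units per 10 °C and did not pass (limma adjusted p = 0.591). Between neighbouring temperatures the means differed by less than 1 SD. Within groups Fcgr2b had a correlation of -0.628 with the background control level over the 20 arrays, given as a description. With that level as a covariate the slope was -0.28 and had a limma adjusted p of 0.779. Between 10 and 23 °C the covariate took the difference from 0.24 to 0.52. Background levels did not overlap between those groups, so background and group cannot be told apart there.

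Around Fcgr2b, 8 Fc receptors and signalling partners were measured, and 0 passed in any test. Against the controls 6 were higher and 2 lower at 10 °C, as at 18 °C, and 2 were higher and 6 lower at 30 °C. Of the same genes 7 were higher and 1 lower at 10 than at 30 °C, and 5 were higher and 3 lower both at 18 than at 30 °C and at 10 than at 18 °C. Fcgrt, the neonatal Fc receptor that recycles IgG and albumin, was at 12.11 ± 0.14, 12.21 ± 0.06, 12.17 ± 0.25 and 11.87 ± 0.27 from 10 to 30 °C (F-test adjusted p = 0.598).

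Kdr is VEGF receptor 2, the main receptor for VEGF-A on endothelium. The 10 °C offspring were at 10.47, 10.72, 10.96, 11.12 and 11.22, the 18 °C offspring at 10.63, 10.66, 11.09, 11.14 and 11.14, and the controls at 10.52, 10.57, 10.58, 10.77 and 10.97. The 30 °C offspring ran from 10.53 to 10.88. In both cold groups some livers were above every control and others were among them, and animal 6 of the 10 °C group was below every control and the lowest of all 20. The differences from 23 °C were 0.22 ± 0.16 (SE) at 10 °C (adjusted p = 0.624), 0.25 ± 0.16 at 18 °C (adjusted p = 0.665) and 0.06 ± 0.16 at 30 °C (adjusted p = 0.999), all by limma.

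Vegfa, the ligand of Kdr, had the smallest F-test p of the 13 measured genes of the VEGF pathway. Its means were 11.03 ± 0.41, 11.08 ± 0.25, 11.52 ± 0.19 and 11.63 ± 0.19 (SD, n = 5) from 10 to 30 °C. The slope was 0.33 ± 0.09 (SE) log2 units per 10 °C, which did not pass (limma adjusted p = 0.444). Flt4, the receptor for VEGF-C, was at 6.66 ± 0.36, 6.56 ± 0.18, 6.00 ± 0.28 and 6.45 ± 0.32, a difference of 0.65 ± 0.18 between 10 and 23 °C (limma adjusted p = 0.184). In this pathway 0 of 13 passed in any test.

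Tek encodes Tie2, the angiopoietin receptor. Its means were 5.90 ± 0.37, 5.68 ± 0.16, 5.57 ± 0.31 and 5.82 ± 0.32 (SD, n = 5), with the controls lowest. The 10 °C offspring ran from 5.42 to 6.36 and the controls from 5.18 to 5.99, and the difference of 0.33 ± 0.19 (SE) did not pass (limma adjusted p = 0.502). Of the 10 angiopoietins and partners of Tek, 0 passed in any test, and 5 were higher and 5 lower between 10 and 23 °C. Angpt2, the angiopoietin that modulates Tie2, had a mean of 3.31, below the level of the negative control rows.

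Eng encodes endoglin, the co-receptor for BMP9 and BMP10. It had the smallest share of variation between groups, at 5.33% of the sum of squares. Its means were 11.54 ± 0.30, 11.53 ± 0.43, 11.66 ± 0.18 and 11.51 ± 0.12 (SD, n = 5). The 18 °C group held both the lowest and the highest liver of the 20, from 10.87 in animal 7 to 11.97 in animal 1. Differences from 23 °C were -0.12, -0.13 and -0.15 (SE 0.18 each) at 10, 18 and 30 °C, with limma adjusted p of 0.837, 0.868 and 0.987.

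Among the 21 measured genes of BMP and TGF-beta signalling around Eng, 0 passed. Against the controls 13 were higher and 8 lower at 10 °C, 7 higher and 14 lower at 18 °C, and 10 higher and 11 lower at 30 °C. Of the same genes 17 were higher and 4 lower at 10 than at 18 °C, 16 higher and 5 lower at 10 than at 30 °C, and 9 higher and 12 lower at 18 than at 30 °C. Id2, a target of BMP signalling, was at 15.34 ± 0.53, 14.22 ± 0.49, 15.18 ± 0.73 and 15.20 ± 0.64 from 10 to 30 °C, a difference of 1.12 ± 0.34 (SE) between 10 and 18 °C (limma adjusted p = 0.440). Atoh8, another target, differed by 1.01 ± 0.27 between the same groups (limma adjusted p = 0.388). Eng itself differed by 0.0095 there.

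Cdh5 is VE-cadherin, the cadherin of endothelial junctions. It had the largest share of variation between groups, at 44.6% of the sum of squares, and the narrowest range of the 10. The 18 °C offspring were at 9.83, 10.03, 10.20, 10.33 and 10.38, and the controls at 9.69, 9.86, 9.91, 9.91 and 9.98. The 10 °C offspring were at 9.95, 9.98, 10.03, 10.07 and 10.23, and the 30 °C offspring at 9.68, 9.73, 9.83, 10.00 and 10.03. Thus 4 of 5 livers of the 18 °C group were above every control, and the exception, animal 3, was below 4 of the controls.

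Cdh5 means were 10.05 ± 0.11, 10.15 ± 0.23, 9.87 ± 0.11 and 9.85 ± 0.16 (SD, n = 5), with both cold groups above the other 2. Between 18 and 23 °C the difference was 0.28 ± 0.13 (SE), or 1.22-fold, with an interval of 0.02 to 0.54 (limma adjusted p = 0.503). Between 18 and 30 °C it was 0.30 ± 0.13 (limma adjusted p = 0.538). The F-test gave an adjusted p of 0.549. Of the 1000 clusters of nearest mean level, 4.7% had a smaller within-group SD.

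Pecam1, the platelet and endothelial adhesion molecule CD31, is carried by endothelium, platelets and leukocytes. Its means were 6.66 ± 0.34, 6.56 ± 0.23, 6.38 ± 0.13 and 6.55 ± 0.36 (SD, n = 5), with the controls lowest. Controls lay between 6.19 and 6.51, while each other group held at least 1 liver at 6.95 or above. The difference between 10 and 23 °C was 0.27 ± 0.18 (SE; limma adjusted p = 0.574).

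Of 12 measured junction partners of Cdh5 and Pecam1, 0 passed in any test, and 6 were higher and 6 lower between 10 and 23 °C. Esam, an endothelial adhesion molecule, had the smallest adjusted p of any of the 208 genes on the other lists, 0.149 for a difference of 0.60 ± 0.15 (SE) between 10 and 23 °C (limma). Its means were 4.77 ± 0.24, 4.67 ± 0.05, 4.17 ± 0.32 and 4.70 ± 0.19, near the mean level of negative control rows.

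**Figure D2:**
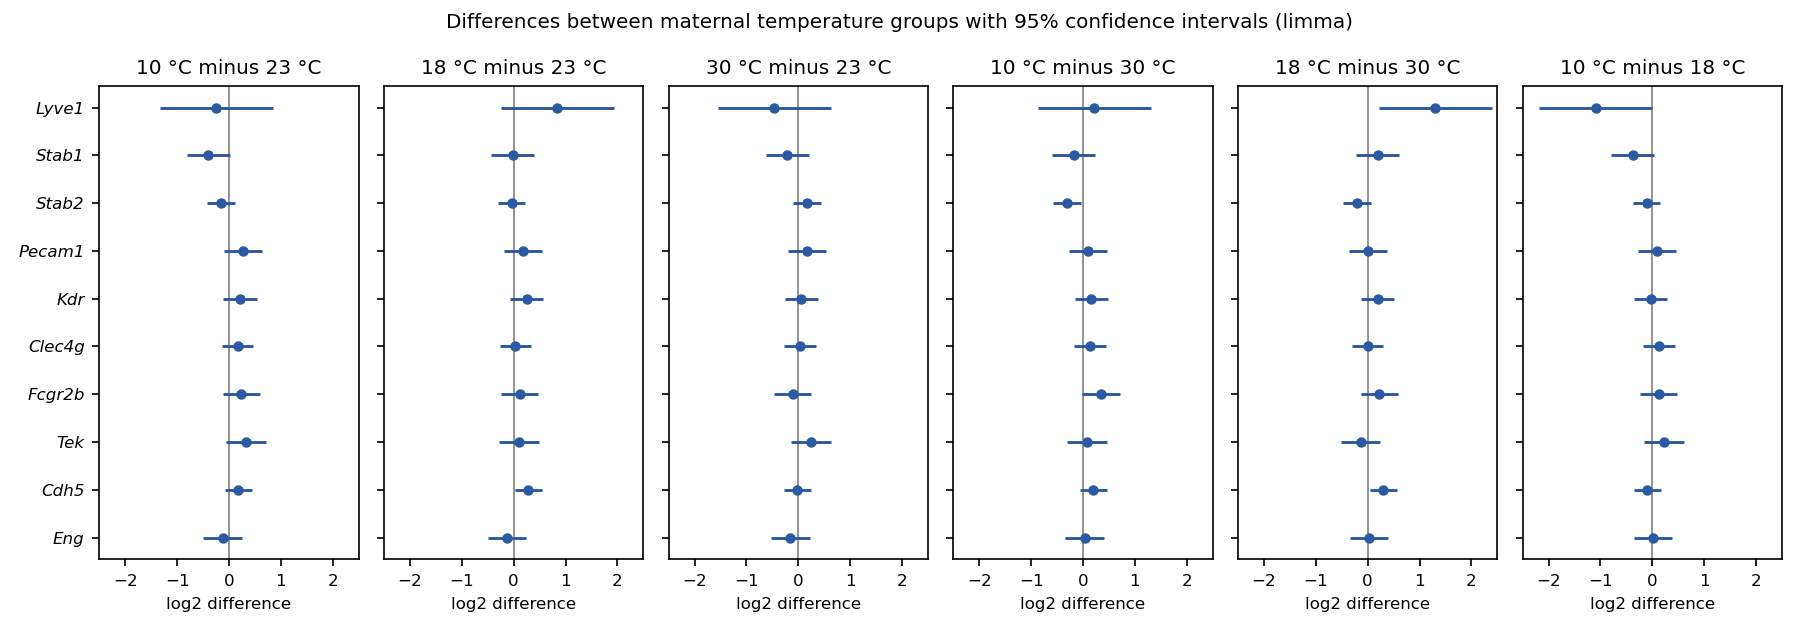
Log2 difference between maternal temperature groups (horizontal axis) for each marker (vertical axis), with points for limma's estimates and lines for their 95% confidence intervals, in 1 panel per comparison. For the markers other than Lyve1, all 54 intervals stay within 1 log2 unit of 0, and the intervals of Lyve1 are the widest in every panel.

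The intervals describe the precision of each difference taken singly, and are not firm limits on what could have gone unseen. They were not adjusted for their number, and they treat the mice as independent although litters are unknown. Differences of dim probes are understated, and Stab1, Pecam1 and Tek were among the dimmer markers. Larger true differences therefore remain possible. For the 9 markers other than Lyve1 all 54 intervals lay within 1 log2 unit of 0, and the bound farthest from 0 was 0.81 in size (1.76-fold), for Stab1 between 10 and 23 °C. The median size of the 54 differences was 0.15. None of the 6 intervals of Lyve1 stayed within 1 unit.

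The spread between mice was much larger for Lyve1 than for the others. From the lowest liver, animal 2 of the 10 °C group, to the highest, animal 1 of the 18 °C group, Lyve1 spanned 9.30-fold. Its within-group SD of 0.97 was above that of 99.1% of the 1000 clusters of nearest mean level. The other 9 had within-group SDs of 0.16 for Stab2 and Cdh5 to 0.33 for Stab1, and Eng was the next highest against clusters of like level, above 71.3% of them.

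Whether the markers moved together from mouse to mouse was examined on deviations from the group means. Of 45 pairs, 35 had a positive and 10 a negative Pearson's r, with a median of 0.171, and 0 passed after Benjamini-Hochberg adjustment over the 45 by Pearson's r or Spearman's rho (100000 permutations within groups). At an unadjusted permutation p under 0.05 there were 4 pairs. Kdr and Cdh5 had r = 0.645 and rho = 0.639 (permutation p = 0.00441 for r, adjusted p = 0.127), and r was 0.564 without the 2 mice farthest from the median. Stab1 and Eng had r = 0.533 and rho = 0.538 (permutation p = 0.00565, adjusted p = 0.127). Clec4g and Eng had r = 0.556 and rho = 0.522 (permutation p = 0.018, adjusted p = 0.269), and Lyve1 and Eng had r = 0.533 and rho = 0.490 (permutation p = 0.0239, adjusted p = 0.269).

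Eng was in 3 of these 4 pairs. Without the 2 farthest mice r was 0.468 for Stab1 and Eng, 0.326 for Clec4g and Eng and 0.564 for Lyve1 and Eng. The calls depended on single mice. Without animal 5 of the 10 °C group Clec4g and Eng passed (r = 0.743, adjusted permutation p = 0.00855), and without animal 5 of the 18 °C group Stab1 and Eng passed (r = 0.603, adjusted permutation p = 0.0306). Kdr had a correlation of 0.679 with the mean of the other markers and Eng of 0.626, while Pecam1 had 0.098.

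**Figure D3:**
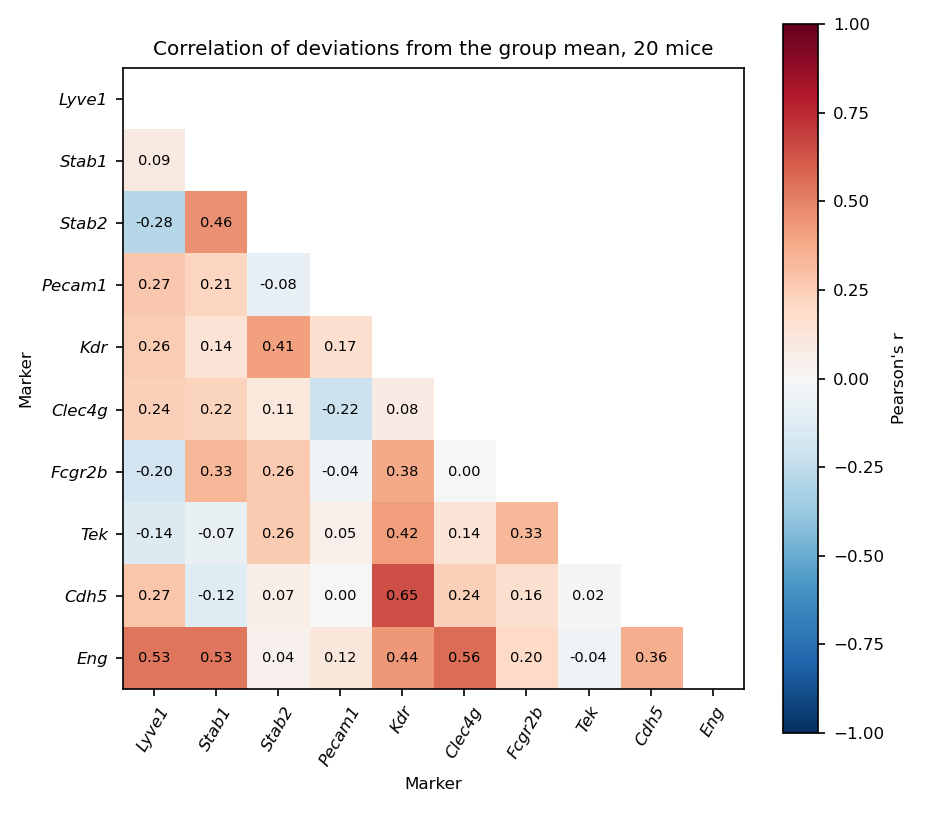
Pearson's r of the deviations from the group mean over 20 mice for each pair of markers (both axes), on a colour scale for r. The highest is 0.645 for Kdr and Cdh5 and the lowest -0.284, and 35 of the 45 pairs are above 0.

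Promoters are shown for Stab1, Eng and Clec4g, since Eng had an unadjusted permutation p under 0.05 with both of the others and all 3 have a promoter in the RefSeq table of GRCm38.p6. That table held 7 of the 10 markers and has no entry for Lyve1, Pecam1 and Cdh5. Each sequence is the 250 bases before the gene's start, written in the direction of transcription. The stretches are chr14:31168642-31168891 on the minus strand for Stab1, chr2:32646345-32646594 on the plus strand for Eng and chr8:3720652-3720901 on the minus strand for Clec4g. Capitals mark GGAAG, the core of sites bound by ETS factors, a family to which the endothelial regulators Erg and Fli1 belong, and CTTCC, the same letters on the other strand.
Stab1: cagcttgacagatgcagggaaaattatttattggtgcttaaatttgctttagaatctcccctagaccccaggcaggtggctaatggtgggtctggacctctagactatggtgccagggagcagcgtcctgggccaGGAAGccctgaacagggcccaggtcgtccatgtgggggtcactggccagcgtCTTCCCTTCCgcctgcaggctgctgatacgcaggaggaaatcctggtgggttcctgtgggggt
Eng: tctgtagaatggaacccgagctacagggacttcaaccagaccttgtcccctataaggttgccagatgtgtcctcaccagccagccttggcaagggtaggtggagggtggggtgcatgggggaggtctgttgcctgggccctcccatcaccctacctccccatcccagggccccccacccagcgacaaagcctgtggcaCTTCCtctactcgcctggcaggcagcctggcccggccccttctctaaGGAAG
Clec4g: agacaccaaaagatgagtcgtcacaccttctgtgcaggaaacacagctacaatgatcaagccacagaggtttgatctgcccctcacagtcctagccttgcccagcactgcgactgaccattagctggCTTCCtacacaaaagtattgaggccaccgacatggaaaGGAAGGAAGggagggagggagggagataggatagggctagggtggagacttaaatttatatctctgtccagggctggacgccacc

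The letters occur 3 times in the Stab1 stretch, 2 times in that of Eng and 3 times in that of Clec4g, and 6 of the 7 promoters held them at least once, the exception being Tek. They are common, however, and were present in 64.1% of all 32851 promoter stretches of the same length. AGATAA, a core of GATA factor sites was in 0 of 7 and in 9.99% of all. TAAACA, a core of forkhead sites, was in 1 of 7 (Fcgr2b) and in 12.03% of all, both strands being searched each time, and none of these motifs contains another. These are matches of letters only.

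The genes most alike in pattern to the 10 markers were found by the correlation, over the 20 arrays, of their deviations from the group means with the mean of the 10 standardised markers. Of those above background, Tmem41b, an endoplasmic reticulum membrane protein, had r = 0.804 and Vdac2, a channel of the outer mitochondrial membrane, r = 0.781. Got2, the mitochondrial aspartate aminotransferase, had r = 0.765, Vldlr, the VLDL receptor, r = 0.762 and Ndufs1, a subunit of respiratory complex I, r = 0.761. Ehd3, a membrane trafficking protein on the list of other sinusoidal genes, had r = 0.755. The remaining 2 of the 8, Galnt17 (r = 0.805) and Pdgfrl (r = 0.755), had means of 2.88 and 3.27, below 3.90. The 99th percentile of r over the clusters with 1 symbol, leaving out the markers, was 0.600, and the values are a description.

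Of 20 other listed genes of the sinusoidal endothelium, 18 were measured and 0 passed. Against the controls 11 were higher and 7 lower at 10 °C, 12 higher and 6 lower at 18 °C, and 5 higher and 13 lower at 30 °C, with medians of 0.15, 0.18 and -0.10. Dnase1l3, a secreted DNase, was at 10.88 ± 0.23, 10.93 ± 0.13, 10.60 ± 0.14 and 10.54 ± 0.36 (SD, n = 5) from 10 to 30 °C (F-test adjusted p = 0.499). Bmp2, a ligand by which this endothelium regulates hepcidin in hepatocytes, was at 5.34 ± 0.11, 5.74 ± 0.17, 5.58 ± 0.18 and 5.39 ± 0.31 (adjusted p = 0.477, limma).

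**Figure D4:**
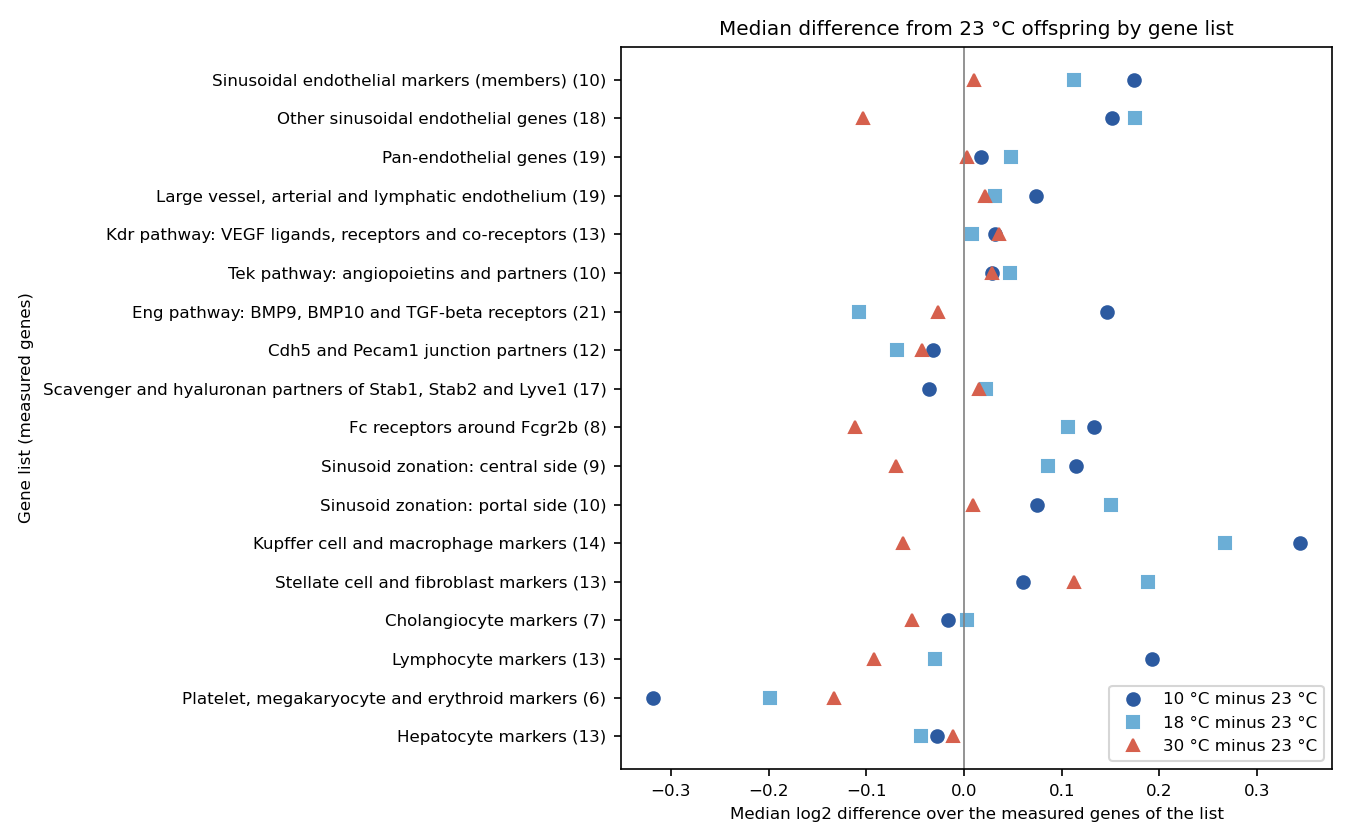
Median log2 difference from the 23 °C offspring (horizontal axis) over the measured genes of each list (vertical axis, number of genes in brackets), with 1 symbol for each of the 10, 18 and 30 °C groups. The markers are at 0.17, 0.11 and 0.0099 and the Kupffer cell list at 0.34, 0.27 and -0.06, while the hepatocyte list stays between -0.04 and -0.01.

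Markers of the other liver cell types were read beside the 10. Of 14 Kupffer cell and macrophage markers, 13 were higher and 1 lower at 10 °C than at 23 °C, with a median of 0.34, and 12 were higher and 2 lower at 18 °C, with a median of 0.27. None of the 14 passed. Their mean per liver ran from 7.22 to 7.75 at 10 °C, from 7.11 to 7.72 at 18 °C, from 6.65 to 7.48 at 23 °C and from 6.69 to 7.60 at 30 °C, with overlap between all groups. Adgre1, which encodes a surface antigen of mature macrophages, differed by 0.74 ± 0.27 (SE) between 10 and 23 °C (limma adjusted p = 0.285). Macrophages also carry Fcgr2b, Lyve1 and Stab1 in some tissues, and the part of these cells in the marker values was not tested.

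The 13 hepatocyte markers had medians of -0.03, -0.04 and -0.01 at 10, 18 and 30 °C against 23 °C, and their mean per liver stayed between 18.61 and 18.81 in all groups. Some of them, such as Alb, lay near the highest value of the series, 19.93. Whether such bright probes understate differences was not tested. The 13 stellate cell and fibroblast markers had medians of 0.06, 0.19 and 0.11, and the 6 platelet and erythroid markers of -0.32, -0.20 and -0.13. Of 13 lymphocyte markers 11 had means under 3.90. Over the 17 other lists, 208 of 234 genes were measured, and 0 passed in any of the 8 tests. At an unadjusted p under 0.05, 31 of the 208 (14.9%) were counted between 10 and 23 °C, where 11.6% of all clusters were. The count was 25 (12.02%) between 18 and 23 °C and 10 (4.81%) between 30 and 23 °C, where all clusters had 9.25% and 4.84%. Between the other groups it was 18 (8.65%) for 10 and 30 °C, 22 (10.6%) for 18 and 30 °C and 15 (7.21%) for 10 and 18 °C, where all clusters had 6.76%, 8.21% and 8.10%. The F-test had 26 (12.5%) and the slope 27 (12.98%), where all clusters had 9.86% and 8.15%. On the pan-endothelial list 6 of 19 measured genes were counted between 10 and 23 °C, all 6 of them higher. Over that whole list 10 genes were higher and 9 lower, with a median of 0.02. Much of the list was dim. Of the 19 genes, 11 had means above the mean level of the negative control rows, and 3 had means under 3.90.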

How the data were processed

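The authors deposited 1 log2 expression value for each row of probes in each liver. RMA, a method of background correction, quantile normalisation and probe summary, and the Transcriptome Analysis Console are named in the submitters' processing notes without versions. The genome build was not given in the sources used here. Quantile normalisation hides a shift common to every transcript, and differences of dim probes are understated. Precision is limited by having 5 arrays in a group. Of 28846 rows, 6640 were control rows and 22206 transcript clusters, of which 19572 had 1 symbol and 2634 had none or several. Values ran from 1.18 to 19.93, arrays correlated at 0.987 to 0.993, and no arrays were identical.

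For each cluster the 20 arrays entered 1 linear model with a mean for every group (R 4.3.3, limma 3.58.1, functions lmFit and eBayes), and a second model gave the slope per 10 °C of maternal temperature. Tests were two-sided, with Benjamini-Hochberg adjustment over all clusters within a test. Pair correlations were computed in Python 3.11.15. The fit and the correlations were tested on simulated data.

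The markers and lists were chosen with earlier results of these data known. Every marker is named. In each other list the 2 genes with the smallest F-test p may be named, and the 8 clusters most alike to the markers are. The alternatives were the variance model, array weights, a covariate for array background, the samples in the fit, the normalisation, filters on dim clusters, the animal number as a block, and leaving out each array.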

Additional observations from a re-analysis of the deposited data

Results flagged for a closer look

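Among the 40 combinations of a marker and a group, 1 held a liver far from the others. Lyve1 in animal 8 of the 30 °C group was at log2 8.44, while the nearest liver of that group was at 6.12 and the farthest at 5.40. The gap made up 0.764 of the range of the group, above the 0.71 of Dixon's 95% criterion for 5 values. Chance alone gives such a value in about 1 of 20 groups, and the liver was kept in all main results.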

How the results depend on the processing

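Over 23 results and 30 other settings, 652 of 655 recomputed values kept their direction and their side of the threshold or stayed within the spread between arrays. For the marker medians that spread was 0.14 log2 units, larger than every median but that between 10 and 23 °C. The count therefore says little about their direction. Some single markers changed sign, such as Cdh5 between 30 and 23 °C in 6 of 29 settings and the Eng slope in 10 of 28. The count of markers that passed was 0 in each of the 8 tests under every setting tried, and the lowest limma adjusted p of a marker in any of them was 0.253. The 3 values that moved concern the pair correlations. With group means not removed, 1 pair passed (Kdr and Cdh5, r = 0.717, adjusted permutation p = 0.0171), and leaving out 1 array gave 0 to 1 pairs. The cause was not tested. The median marker difference ran from 0.12 to 0.21 between 10 and 23 °C, from 0.02 to 0.18 between 18 and 23 °C and from -0.04 to 0.04 between 30 and 23 °C.

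Some groups share animal numbers in the labels. Deviations of the 11 same-numbered pairs of arrays correlated at -0.151 to 0.110, and 0 of 16 arrays correlated best with their own number. The 139 other pairs from different groups correlated at -0.171 to 0.333. The labels do not say what the number stands for, and 11 pairs are too few to settle whether such mice share more. With the animal number as a replicate block, 0 markers passed in any test, and the Lyve1 difference between 18 and 30 °C was 1.87. Animals 15, 17 and 23 of the 23 °C group share their number with no other array. In that fit, comparisons with 23 °C therefore rested on animals 1 and 2 of the group. The block also left few degrees of freedom, so the absence of calls says little.

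With 5 livers per group the intervals of Lyve1 reached 2.39 log2 units. Lyve1, Stab1, Pecam1 and Tek lay below the 95th percentile of single negative control rows. The number of endothelial cells and the position of a gene's use along the sinusoid were not measured.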

Other observations

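After the spread of Lyve1 was seen, the clusters whose deviations from the group means went most closely with it over the 20 arrays were looked up. They were Efnb2 (r = 0.831, rho = 0.782), the ephrin ligand of arterial and portal endothelium, Zfp113 (r = 0.830), Serpina7 (r = 0.824), which encodes thyroxine-binding globulin, Cib3 (r = 0.804) and Esm1 (r = 0.801), an endothelial proteoglycan gene whose mean of 2.91 lay below the level of the olfactory receptor clusters. Without the 2 mice farthest from the median, r was 0.737 for Efnb2, 0.811 for Zfp113, 0.712 for Serpina7, 0.655 for Cib3 and 0.753 for Esm1. Cib3 had a mean of 4.63, within the range of the array means of negative control rows (4.40 to 4.75), and Efnb2 of 4.93, just above it. These values were selected as the highest among the clusters with 1 symbol and are a description.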
